A study of Mus musculus with 4 samples.

Results

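The cells described here are the interferon-high cells among regulatory T (Treg) cells of the mouse thymus, that is, cells that carried many transcripts of a set of interferon-response genes. Cells were chosen by measured counts: a cell was taken when its counts of unique molecular identifiers (UMIs, each standing for 1 captured transcript) summed to 10 or more over 7 genes, Ifit1, Ifit3, Ifit3b, Rsad2, Usp18, Isg15 and Oasl2, called the rule genes below. The rule took 325 of 8273 cells (3.93%, exact 95% interval 3.52 to 4.37). Since these 7 genes chose the cells, their own levels are a description of the choice and carry no finding.

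The series profiled single cells from 3-week-old mice, sorted on CD4 without CD8, on Thy1.1 and on GFP. All animals were of B6 background and carried a Rag2-Gfp reporter, which marks recently formed T cells, and a Foxp3-Thy1a reporter, which puts Thy1.1 on Foxp3-expressing cells. There was 1 sample each of Il2 wild type (IL2 wt/wt), Il15 wild type (IL15 wt/wt), Il2 knockout (IL2 o/o) and Il15 knockout (IL15 o/o). The number of animals behind a sample is not given in the labels. Cell barcodes in the deposited counts end in a digit, 1 to 4, and each digit was treated as a library. The labels do not say which genotype a digit stands for, so the libraries are unassigned, genotypes were not compared, and values are given by library.

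Type I interferons act through the receptor chains Ifnar1 and Ifnar2 and transcription factors that include Stat2 and Irf9, which bind the interferon-stimulated response element. Type II interferon, the product of Ifng, acts through Ifngr1 and Ifngr2 and leads to binding at the gamma-activated site. The induced genes include antiviral effectors, sensors of viral nucleic acid, GTPases that attack intracellular parasites, and the antigen-presentation machinery. In the thymus, interferons are made by epithelial and other stromal or myeloid cells even without infection.

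Among the rule genes, Isg15, a ubiquitin-like modifier, gave 36.5% of the 5733 rule-gene UMIs in the 325 cells. Ifit1, which binds foreign RNA ends, gave 30.3%, Ifit3 12.5%, and Usp18, the enzyme that removes Isg15 from proteins, 10.5%. Ifit3b gave 3.82%, the 2-5A synthetase relative Oasl2 3.3%, and Rsad2 (viperin) 3.14%. Isg15 was the leading gene alone in 167 cells and Ifit1 in 110. UMIs of 5 or more of the 7 genes were present in 142 cells, and of 3 or fewer in 81, so the cut was reached by different mixtures.

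The promoter stretches of these genes and of some genes described further on are shown because they carry the element named above. Each is 100 bases upstream of the RefSeq gene start (GRCm38.p6), 5′ to 3′ on the gene's strand, in lower case, with matches to the response-element core (GAAA, any 2 bases, then GAAA, searched on either strand) in capitals.
Ifit1 (chr19:34640740.0-34640839.0, plus strand): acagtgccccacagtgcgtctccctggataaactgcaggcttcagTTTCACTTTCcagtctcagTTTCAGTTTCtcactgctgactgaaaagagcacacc
Ifit3 (chr19:34583328.0-34583427.0, plus strand): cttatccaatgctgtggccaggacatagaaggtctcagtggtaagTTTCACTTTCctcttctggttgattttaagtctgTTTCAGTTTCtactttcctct
Rsad2 (chr12:26456518.0-26456617.0, minus strand): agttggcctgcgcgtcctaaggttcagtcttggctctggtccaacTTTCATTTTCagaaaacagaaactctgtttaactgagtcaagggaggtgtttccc
Isg15 (chr4:156200842.0-156200941.0, minus strand): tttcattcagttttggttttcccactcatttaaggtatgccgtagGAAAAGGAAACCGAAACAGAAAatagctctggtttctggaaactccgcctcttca
Cxcl10 (chr5:92349040.0-92349139.0, minus strand): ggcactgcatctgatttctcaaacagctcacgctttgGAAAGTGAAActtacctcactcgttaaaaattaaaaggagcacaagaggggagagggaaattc
Gbp2 (chr3:142620559.0-142620658.0, plus strand): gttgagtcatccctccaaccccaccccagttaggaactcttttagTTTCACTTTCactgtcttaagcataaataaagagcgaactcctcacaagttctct
Igtp (chr11:58199456.0-58199555.0, plus strand): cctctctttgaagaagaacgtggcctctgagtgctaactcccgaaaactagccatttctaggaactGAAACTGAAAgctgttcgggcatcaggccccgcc
Ifit3b had the same 100 bases as Ifit3, at chr19:34607724-34607823. In Isg15, 3 matches overlapped, the first at position -78 from the gene start. Ifit1 held 2 matches, the first at -104, and the chemokine gene Cxcl10 held 1 at -213. Over the window from 250 bases before to 50 after the start, the core was found in 5 of the 6 rule genes with a promoter entry, Oasl2 being the gene without a match. It was found in 3.99% of the 27025 genes with a promoter entry, a gene being counted when any of its promoters held a match. Not every gene described further on held a match: Cmpk2, Oasl1, Irf7 and Isg20 had none in that window. A match is a description of the letters and not a measured binding site.

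The libraries differed in depth and in share of interferon-high cells. Total counts ran from 5717732 UMIs in library 3 to 11274713 in library 2. The rule took 71 of 1609 cells in library 1 (4.41%, exact 95% interval 3.46 to 5.53), 95 of 2452 in library 2 (3.87%, 3.15 to 4.72), 48 of 2037 in library 3 (2.36%, 1.74 to 3.11) and 111 of 2175 in library 4 (5.1%, 4.22 to 6.11). Interferon-high cells were also deeper, with a median of 3850 UMIs against 3120 in the other cells. When every cell was thinned to 1811 UMIs and the cut set at 5, the shares were 4.24% (3.29 to 5.36), 4.57% (3.76 to 5.51), 5.67% (4.6 to 6.91) and 7.07% (5.98 to 8.3). Library 3 went from the lowest share to the second highest, so no order of the libraries is read from these shares. Thinning left out 52, 135, 415 and 224 cells as too shallow.

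The numbers of cells fell off across the cut. No rule-gene UMI was seen in 3711 cells, 1 or 2 in 2752, 3 to 5 in 1052, 6 to 9 in 433, 10 to 19 in 245 and 20 or more in 80. There were 169 cells at 8 or 9 UMIs and 90 at 10 or 11. Interferon-high cells had a median of 14 rule-gene UMIs and a highest value of 79. These are the values that chose the cells, uncorrected for depth, and whether the cells form a separate type was not tested.

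**Figure D1:**
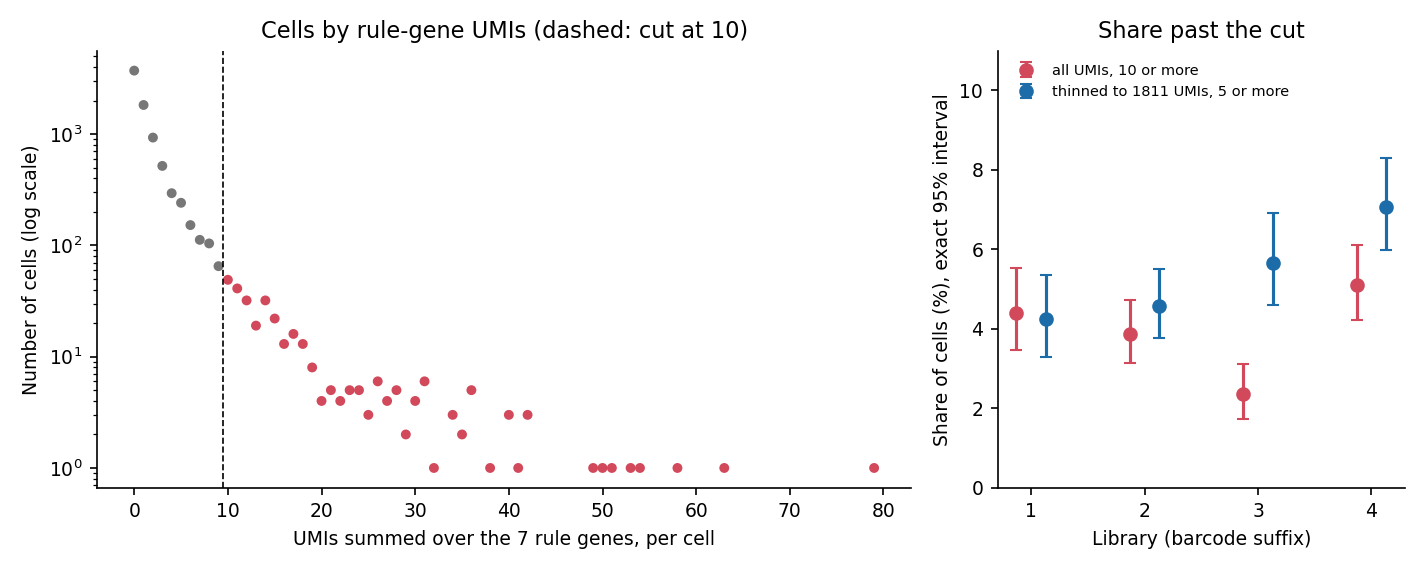
Left, number of cells (log scale) by rule-gene UMIs per cell, with the cut at 10 dashed and interferon-high cells in red. Right, share of cells past the cut in each library with exact 95% intervals, on all UMIs (red) and after thinning to 1811 UMIs with a cut of 5 (blue), where library 3 moves from 2.36% to 5.67%.

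Comparisons used the authors' deposited table of cells named as G1, which held 288 interferon-high cells (63, 82, 44 and 99 in libraries 1 to 4) and 6943 others. Levels are UMIs of a gene per 1000000 UMIs of the same cells (CPM), and ratios were combined over libraries by the Mantel-Haenszel method. A gene was called when it had at least 100 UMIs, a ratio of at least 1.5-fold, a 95% counting interval off 1 and the same direction in all 4 libraries. Of 8889 genes, rule genes left out, 209 were called higher in interferon-high cells (2.35%) and 201 lower (2.26%), or 4.61% in either direction. Within strata of library and depth, 217 and 200 were called. The median log2 ratio of all these genes was -0.08. With median-of-ratios scaling, which moved that median to -0.02, the split was 249 higher and 140 lower.

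With 1 library per suffix there was no replicate test, no p-value was computed, and intervals cover counting error only. Library 3 stood apart from the rest: its other cells had 32.3 CPM of Il2ra, the IL-2 receptor alpha chain, against 166 to 189 in the other libraries. The list of interferon-gamma-type GTPases summed to 1736 CPM there, against 638 to 819.

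Of the 209 genes called higher, 75 were in the interferon lists and 130 in no list. The interferon lists hold relatives of the rule genes in the same cells, so their direction is no independent evidence. The accounts that follow say which members moved, by how much, and which were not called.

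Antiviral effectors were higher as a group. Of 29 measured members, 19 were called higher and 1 lower, with a median log2 ratio of 1.22. Cmpk2, a mitochondrial nucleotide kinase encoded beside Rsad2, stood at 53.3, 95, 52.9 and 83.3 CPM in interferon-high cells of libraries 1 to 4. In the other cells it stood at 5.32, 4.35, 7.33 and 7.01 CPM, a log2 ratio of 3.69 (95% interval 3.31 to 4.06). The pooled level was higher in each of the 4 libraries, and 61 of the 288 interferon-high cells had a Cmpk2 UMI.

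The oligoadenylate synthetase family, whose products activate RNA decay or act as its relatives, gave Oasl1 at 3.14, Oas3 at 2.93 and Oas1a at 2.28. Isg20, an RNA exonuclease, was 5.23-fold higher, and Ifitm3, a membrane protein that blocks viral entry, 5.79-fold higher. Ifitm2 was the member called lower (log2 ratio -0.80, 19 UMIs in interferon-high cells). Bst2 (tetherin), which holds budding virus at the membrane, was 2.35-fold higher, and the RNA-activated kinase gene Eif2ak2 4.05-fold higher.

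Ifi27l2a and Shisa5 were members with many UMIs and small ratios. Ifi27l2a stood at 3952 CPM in interferon-high cells and 2724 in the others, and Shisa5 at 3219 and 2481. Their log2 ratios of 0.51 and 0.39 were under the size needed for a call, although both genes were higher in each library. Reads of Ifit1 and Ifit1bl1 (2.24), and of other close paralogs such as Tgtp1 with Tgtp2 and the Ifi200, Gbp and Slfn families, may be divided between copies in the deposited counts.

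Sensors of nucleic acid and their regulators were higher in 12 of 17 measured members, with a median of 1.36 and none lower. Dhx58, Ifih1 and Ddx58, the 3 RIG-I-like receptors of viral RNA, had log2 ratios of 2.08, 2.03 and 1.61. Zbp1, a sensor of Z-form nucleic acid, stood at 354, 409.9, 529 and 534 CPM in interferon-high cells and 117, 123, 222 and 141 in the others. Every library was higher, and the combined log2 ratio was 1.69 (1.56 to 1.82). The adaptors downstream were not called: Mavs stood at -1.12 (interval -2.29 to 0.04, 6 UMIs in interferon-high cells) and Tmem173 (STING) at 0.02. The endosomal RNA receptor gene Tlr7 (0.87) and the DNA sensor gene Aim2 (0.68) were also not called.

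The list named for the PARP, SP100 and SLFN families was higher in 18 of 25 measured members, with a median of 1.47 and none lower. It also holds interferon-inducible genes of other families, and Phf11b, Phf11d, Helz2, Epsti1, Lgals3bp, Lgals9 and Ly6a are among its calls. Parp12, an antiviral ADP-ribosyltransferase, had a log2 ratio of 2.74, and Slfn5, of the Schlafen family, 2.66. Slfn5 stood at 113, 144, 264 and 187 CPM in interferon-high cells of libraries 1 to 4, against 20.9, 21.5, 40 and 28.8. Daxx and Pml, partners in nuclear bodies, were 3.18- and 3.52-fold higher. Ly6a (Sca-1) had a log2 ratio of 2.04 with 390.0 CPM in interferon-high cells of library 3 and 31.4 to 62.4 in the rest, and 17.4% of its UMIs came from 1 cell.

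Of 17 interferon signalling factors, 7 were called higher and none lower, with a median of 0.53. Stat2, which binds DNA together with Irf9 after type I interferon, stood at 25.1, 76, 66.1 and 41.7 CPM against 9.47, 8.35, 19.6 and 9.1, a log2 ratio of 2.30. Irf7, the factor that amplifies type I interferon production, was 3.13-fold higher (469 against 154 CPM). Irf9 stood at 0.53 (0.33 to 0.73) and was not called, although it was with median-of-ratios scaling (0.59) and without library 1 (0.66). Of these partners, Stat2 had the larger ratio, a difference that was not tested.

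Irf1, induced by both interferon types, was 1.79-fold higher, and Irf8 2.06-fold with 13.4% of its UMIs in 1 cell. Socs1, an inhibitor of JAK kinases, was 1.51-fold higher. Without library 2, Irf1 fell to a log2 ratio of 0.47 and Socs1 to 0.51, and neither was then called. The kinases Jak1 (0.11) and Tyk2 (0.16) were not called. Jak2 had a combined log2 ratio of 0.66 but stood at 13.6 CPM against 14.6 in library 2, and was not called.

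For the interferon receptor chains no call was made. None of 5 measured chains was called in either direction, and their median was -0.05. Ifnar1 stood at 56.4, 106, 119 and 88.5 CPM in interferon-high cells and 77.3, 85.3, 84 and 86.7 in the others. Library 1 was lower and the rest higher, and the combined log2 ratio was 0.10 (-0.18 to 0.37). Ifnar2 had -0.05 (-0.39 to 0.29), Ifngr1 -0.06 (-0.25 to 0.13), Ifngr2 -0.10 (-0.39 to 0.19) and Il10rb, shared by the IL-10 and type III interferon receptors, 0.43 (0.11 to 0.74). The upper bounds for Ifnar1 and Ifnar2 lie under the 1.5-fold size of a call.

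Interferon genes were not detected in these cells. All 17 interferon genes in the list were at 0 in the interferon-high cells of the G1 table, which held 1222589 UMIs, so that a level of up to 2.45 CPM per gene is allowed (3 counts). Ifng and Ifnk were the only members with any UMI in the other cells. They had 6 and 1 UMIs there.

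GBP and IRG GTPases, which the list holds with Cxcl9, Cxcl10 and Ciita as genes strongly induced by interferon gamma, were higher in 13 of 16 measured members. The median was 1.48 and none was lower. Igtp, an immunity-related GTPase, stood at 370.0, 432, 674 and 482 CPM in interferon-high cells and 121, 137, 297 and 144 in the others. Every library was higher, with a log2 ratio of 1.57 (1.44 to 1.70). Iigp1 had 1.98, Irgm1 1.88, Gbp6 1.72 and Gbp2 1.27. Ciita and Cxcl9 were at 0 in interferon-high cells.

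Library 3 carried more of these GTPases in both groups. Their sum was 3722 CPM in its interferon-high cells and 1736 in its other cells, against 1966 to 2557 and 638 to 819 in the rest. Iigp1 stood at 284 against 136 CPM in library 3 and at 103 against 16.1 in library 1, so its ratio was smaller where its base was higher. Without library 3 the list median was 1.63.

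Cxcl10, a chemokine that attracts Cxcr3-bearing T cells (chr5:92346638-92348889, GRCm38), had the largest ratio among called genes, ahead of Cmpk2 (3.69). With 64 UMIs in the other cells it reached the 100-UMI minimum only together with the interferon-high cells, and with 100 UMIs required in the other cells it was not tested and 207 genes were called higher. It stood at 37.6, 51.6, 52.9 and 33.8 CPM in interferon-high cells and 0.831, 1.03, 6.93 and 2.24 in the others, a log2 ratio of 4.32 (3.78 to 4.87). This rests on 52 UMIs in 22 interferon-high cells, 17.3% of them in 1 cell. Leaving out any 1 library took it under 100 UMIs, with ratios of 3.89 to 4.83. By step of rule-gene UMIs it stood at 1.92 CPM at 1 to 2, 2.08 at 3 to 5, 9.56 at 6 to 9, 9.31 at 10 to 19 and 121 CPM at 20 or more. Its level was concentrated in the 74 cells at the top of the range.

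**Figure D2:**
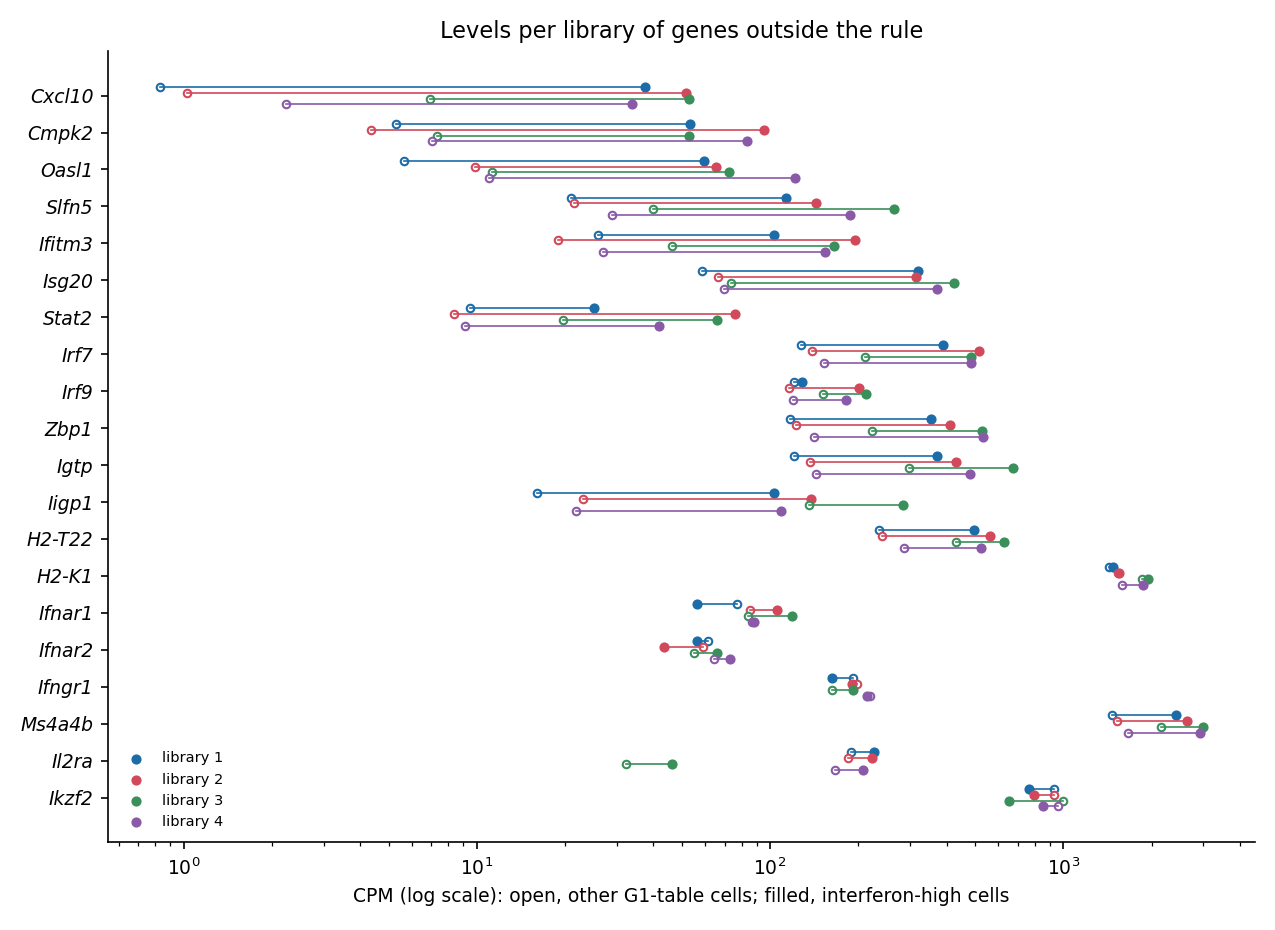
Level (CPM, log scale) of genes outside the rule in each library, open for other G1-table cells and filled for interferon-high cells. Cxcl10 to Isg20 are far apart in all 4 libraries, whereas Ifnar1, Ifnar2, Ifngr1 and H2-K1 lie close together.

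In MHC class I and antigen processing, 6 of 20 members were called higher and none lower, with a median of 0.32. The called genes were the non-classical class I genes H2-T24 (1.49), H2-T22 (0.96) and H2-T23 (0.63), the class I transactivator Nlrc5 (0.98), the peptide-loading chaperone Tapbp (0.77) and the peptide transporter Tap1 (0.73). The classical heavy chains were near level, with H2-K1 at 0.10 (1684 against 1587 CPM) and H2-D1 at 0.08. B2m, their light chain, was at 0.18. The immunoproteasome subunits Psmb8, Psmb9 and Psmb10, at 0.54, 0.55 and 0.57, lay just under the size of a call. H2-T23 was at 0.54 and not called without library 2.

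**Figure D3:**
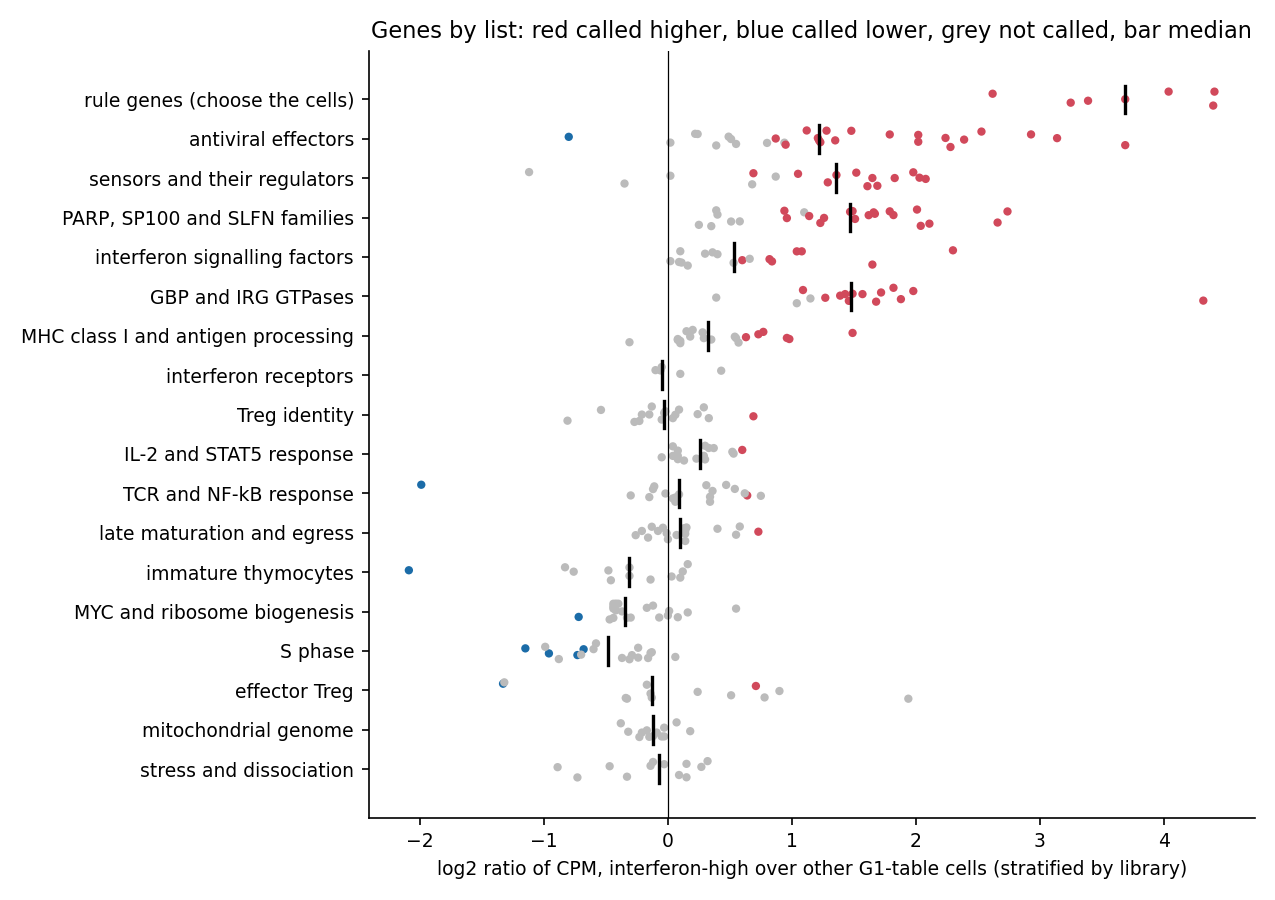
Log2 ratio of CPM in interferon-high over other G1-table cells for each measured gene of a list, red where called higher, blue where called lower and grey where not called, with the list median as a bar. The rule genes are drawn as the choice of cells. The effector, sensor, PARP and GTPase lists have medians of 1.22 to 1.48, the receptors -0.05 and Treg identity -0.03.

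The interferon lists rose in steps across the whole range of cells, below the cut as well as above it. The GTPases summed to 645 CPM in cells without a rule-gene UMI, 911 at 1 to 2, 1315 at 3 to 5, 1746 at 6 to 9, 2179 at 10 to 19 and 3248 at 20 or more. Sensors went from 979.7 to 4016 CPM over the same steps, and antiviral effectors from 6088 to 12619. Irf7 went from 97 to 567 CPM and Zbp1 from 95.1 to 556. Every step of these sums was higher than the previous one over all libraries pooled. In library 3 alone the antiviral, sensor, GTPase and MHC sums were lower at 10 to 19 than at 6 to 9.

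Cells on either side of the cut were much alike. The 43 cells with exactly 10 rule-gene UMIs had 2255 CPM of the GTPases, 2661 of the sensors and 10068 of the antiviral effectors. The 60 cells with 9 had 2065, 2582 and 10307 CPM. These values are given as a description of the threshold.

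**Figure D4:**
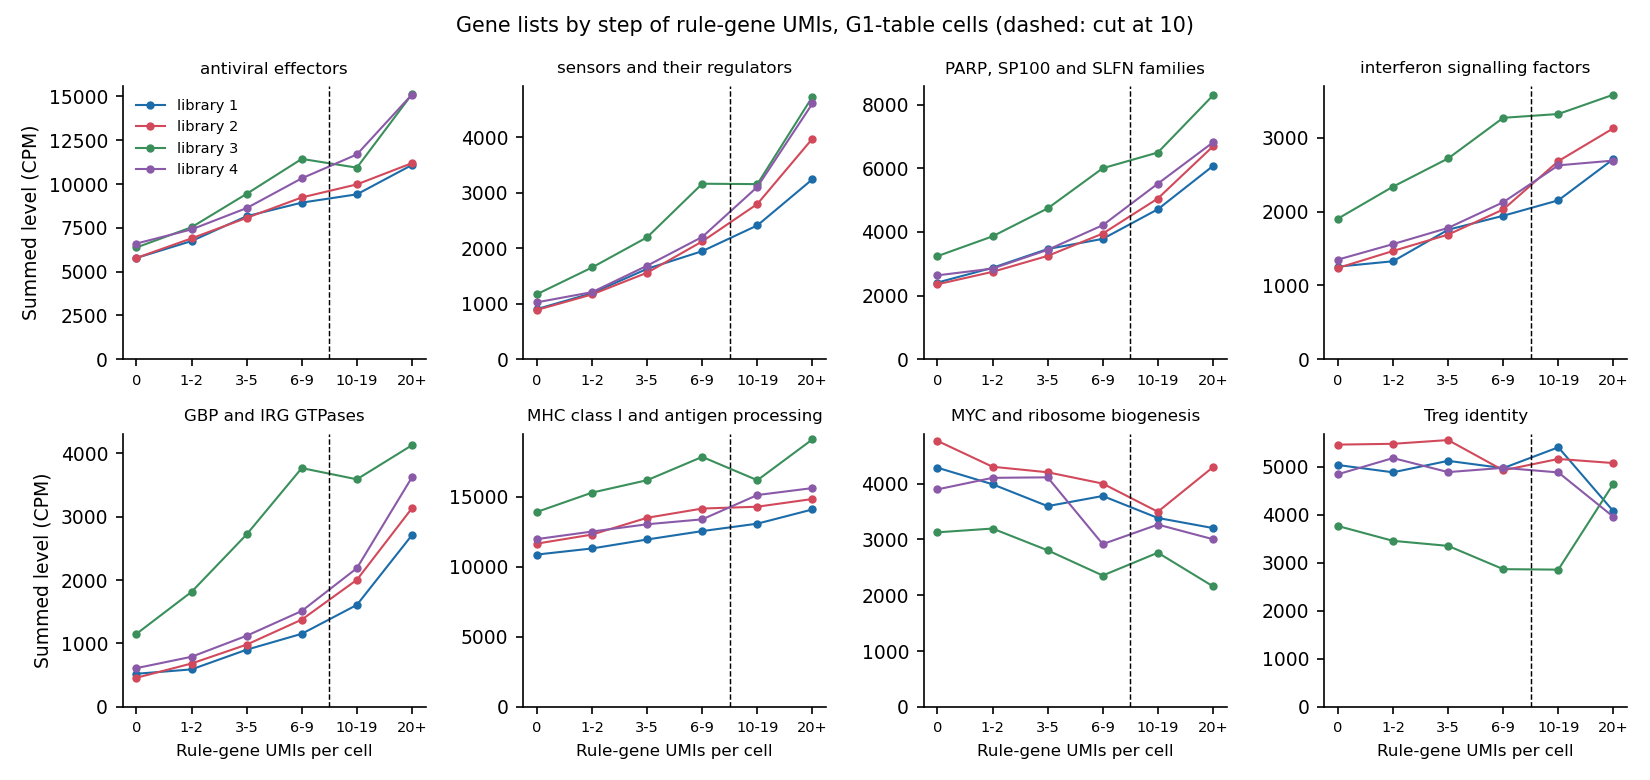
Summed level (CPM) of 8 gene lists by step of rule-gene UMIs per cell, 1 line per library, with the cut at 10 dashed. The 6 interferon lists climb from left to right on both sides of the cut, apart from library 3 at 10 to 19, while the MYC and Treg identity lists show no such climb.

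Single interferon-high cells varied widely. Among the 288 cells, the GTPase sum ran from 0 to 15152 CPM with a median of 2211, against a median of 672 in the others. Of these cells, 58.3% were above the 90th percentile of other cells for sensors, 44.8% for antiviral effectors, 42.7% for the GTPases, 17.4% for MHC class I and 11.8% for Treg identity. Against the 90th percentile of their own library, the GTPase shares were 49.2%, 62.2%, 27.3% and 52.5% in libraries 1 to 4. The antiviral shares were 39.7%, 47.6%, 50% and 47.5%, so the GTPases and antiviral effectors changed order in library 3. The MHC class I shares were 27%, 24.4%, 22.7% and 28.3%, each above the 17.4% of the libraries pooled. Across the 288 cells, Spearman's rho of rule-gene level was 0.63 with the PARP, SP100 and SLFN list, 0.60 with the GTPases, 0.34 with MHC class I (0.12 in library 4), -0.20 with Treg identity (0.02 in library 3) and -0.21 with MYC genes. The cells were chosen on rule-gene UMIs, so the lowest rule-gene level a chosen cell can have rises as its depth falls. Each pair of levels was also divided by the depth of the same cell, and cells share a library. The size and sign of these correlations, negative ones included, are therefore shaped by the cut and by depth. They are descriptions, and a relation between the lists apart from the cut and depth was not tested. With late maturation and egress genes rho was 0.42, but 0.08 in library 3. That list shares Slfn2 and Ly6c1 with the PARP, SP100 and SLFN list.

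**Figure D5:**
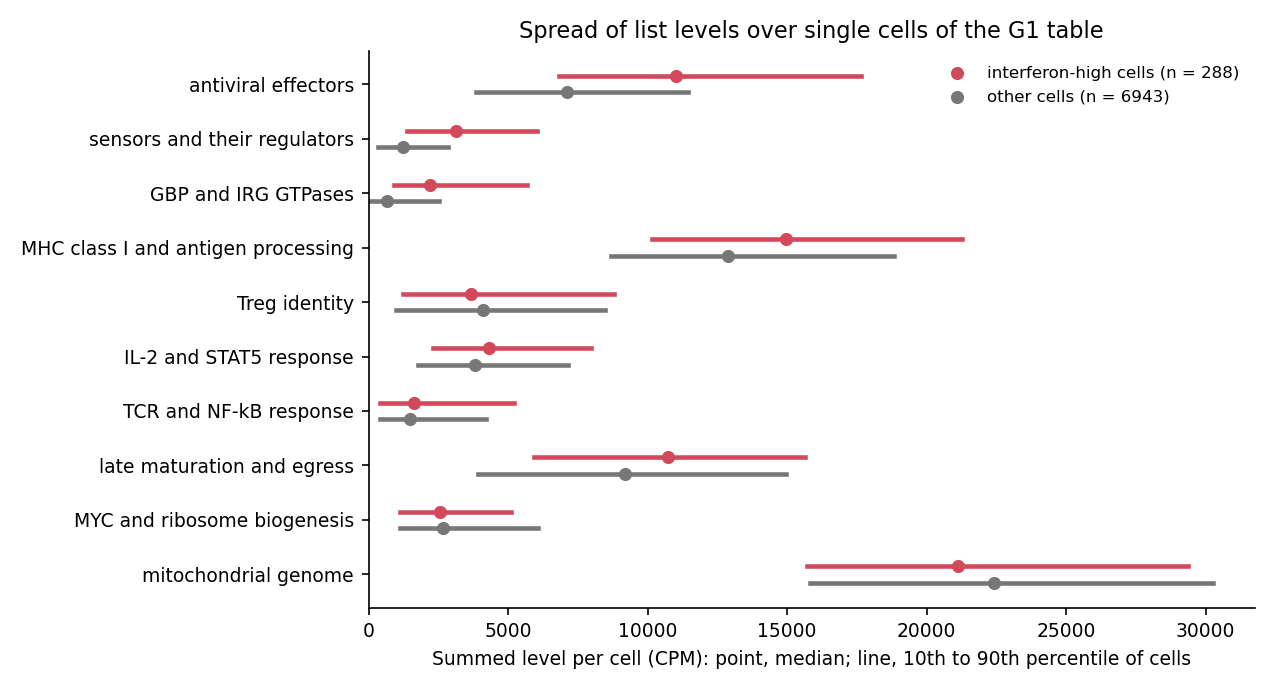
Summed level per cell (CPM) of 10 gene lists in interferon-high (red, 288) and other (grey, 6943) cells, with the median as a point and the 10th to 90th percentile as a line. The sensor and GTPase lines of interferon-high cells are shifted to higher levels but overlap in part with those of the other cells. For the GTPases they run from 903 to 5667 against 0 to 2524 CPM. The Treg identity and mitochondrial lines overlap almost wholly.

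Of 17 Treg identity genes 1, Nt5e, was called higher and none lower, with a median of -0.03. The median was -0.22 at a cut of 15 rule-gene UMIs and -0.33, with 1 gene called lower, at 30 per 10000 UMIs. Foxp3, the lineage-defining factor, gave 12.9, 20.2, 0 and 13.8 CPM in all interferon-high cells of libraries 1 to 4, from 5, 10, 0 and 6 UMIs, too few to place library 3 apart. Ikzf2 (Helios) stood at 787 against 951 CPM (-0.27), Il2ra at 197 against 152 (0.29), Il2rb at -0.02 and Ctla4 at -0.21. Nt5e (CD73, which makes adenosine) had 0.69. It was not called at a cut of 6 rule-gene UMIs (0.49), nor at 15, where fewer cells gave a larger ratio of 1.03.

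The targeted cytokine genes gave little. Il2 gave 8, 16, 5 and 20 UMIs in interferon-high cells of libraries 1 to 4, and a log2 ratio of -0.02 in the G1 table. Il15 gave 1 UMI in all. A 3′ tag does not show whether the coding sequence is intact, so these counts do not check the labels.

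IL-2 and STAT5 response genes had a median of 0.26, and Socs1, also on the signalling list, was the member called higher. Ccnd2, the D-type cyclin induced by IL-2, stood at 1257 against 863 CPM (0.53), under the size of a call, and Bcl2 at 0.04. Of 19 TCR and NF-kB response genes, Egr2 was called higher (0.64, 28 UMIs) and Xcl1, a chemokine, lower (-1.99, 5 UMIs). The activation marker Cd69 was 1.53-fold higher over all libraries but stood at 163 against 172 CPM in library 1, and was not called. Without library 1 it had 0.79 and was called. Egr2 was not called without library 2 (0.52), nor at a cut of 6 (0.36) or 15 (0.25) rule-gene UMIs. At 30 per 10000 UMIs Egr2 had 1.14 and was not called. Xcl1 was not called at a cut of 6 (-1.14), 15 (-1.31) or 30 per 10000 UMIs (-1.80).

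Late maturation and egress genes had a median of 0.10, with 1 of 18 called higher. Their sum was higher in each library, at 8884, 9716, 10577 and 10124 CPM against 7437, 7664, 9780.3 and 8012. The sum weights genes by their UMIs, and 11 of the 18 genes had a log2 ratio above 0. The largest ratios were those of Ms4a4b, Slfn2 (0.58) and Ms4a6b (0.55). Slfn2 and Ly6c1 (0.40) are also on the PARP, SP100 and SLFN list. The called gene, Ms4a4b, a surface protein of mature T cells, stood at 2415, 2644, 2988 and 2921 CPM against 1470.4, 1527, 2162 and 1665, higher in every library (0.73, 0.68 to 0.78). S1pr1, the receptor that guides exit from the thymus, was at -0.13 and its regulator Klf2 at -0.08. Among immature thymocyte genes none of 12 was called higher and 1, Cd8a, lower (-2.09, 4 UMIs), with a median of -0.31. Cd4 was at 0.01.

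The calls among genes of growth and division were all lower, where 2.26% of all 8889 genes were called lower. MYC and ribosome biogenesis genes had a median of -0.35, and 1 of 20, Rrp9, was called lower (-0.72). Their sum was lower in each library, at 3327, 3768, 2618 and 3200.1 CPM against 4061, 4482, 3069.6 and 3943. S phase genes had a median of -0.48, with 4 of 18 called lower, the replication genes Mcm5 (-0.96), Mcm7 (-0.68) and Gins2 and the DNA repair gene Ung (-0.73). The S phase median was -0.13 without library 4, -0.11 with no call at a cut of 15, and 0.07 with the interferon-high cells outside the G1 table. The S phase sum was 654 against 509 CPM in library 3 and 513 against 1076 in library 4. None of 12 measured G2 and M phase genes was called, and their sum was 132, 86.9, 225 and 75.5 CPM in libraries 1 to 4 against 125, 187, 27.7 and 154, higher in 2 libraries and lower in 2. Calls were lost without library 4 for Mcm7 (-0.50) and Ung (-0.52) and without library 1 for Rrp9 (-0.47) and Gins2 (-0.71). Without library 2, Gins2 had -2.41 against -1.15 with all 4 libraries, and Mcm5 -1.78.

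The other genes called lower were mostly scarce. The 12 with the largest ratios had 1 to 4 UMIs in interferon-high cells, led by Acy1, Cenpb and Tmem238, and their ratios depend on the added pseudocount. Only 27.9% of the 201 lower calls were made at a cut of 6 rule-gene UMIs and 24.9% at 15, against 64.1% and 75.1% of the 209 higher calls. Better measured lower genes, chosen after their values were seen, were the cytokine gene Mif (-0.62, 490 UMIs), the mitochondrial chaperone gene Hspd1 (-0.73) and Nkg7 (-0.87), a cytotoxic granule protein.

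Markers of other cell types were scarce in the whole G1 table. Siglech of plasmacytoid dendritic cells, Itgax and Csf1r of myeloid cells, Pax5 of B cells, and Krt5 and Foxn1 of thymic epithelium had no UMI in either group, so their 0 does not set interferon-high cells apart. Among markers detected in both groups, Nkg7 of the NK, NKT and gamma delta list was called lower (-0.87). Cd8a of the double-positive list was also called lower (-2.09, 4 UMIs in interferon-high cells). In each of these lists 1 measured member had a ratio above 0, and neither was called. They were Gzma (1.41, interval 0.50 to 2.31, but -0.10 without library 2) and Aqp11 (0.26, -0.71 to 1.22). Of double-positive genes too scarce to be measured, Ptcra had 1.77 (44 UMIs over both groups), Rag1 -1.85 and Rag2 -1.52. Cst3 of dendritic cells, at 115 against 129 CPM, and the MHC class II chaperone gene Cd74, at 57.3 against 73.2, were not called. Nor were the B cell receptor gene Cd79b, at 9.82 against 13.1, and Epcam of epithelium, at 20.4 against 15.5. Genes at 0 in interferon-high cells numbered 5 of 10 for plasmacytoid dendritic cells, 3 of 7 for B cells and 9 of 11 for thymic epithelium. They numbered 5 of 12 for NK, NKT and gamma delta T cells, 1 of 9 for double-positive thymocytes and 3 of 7 for erythroid cells. In the same order, the other cells had 2, 2, 4, 1, 0 and 1 genes at 0. The other cells held 26510999 UMIs against 1222589, and fewer UMIs leave more genes at 0, so these counts do not set interferon-high cells apart. Of 16 myeloid and dendritic genes, 13 were at 0 in interferon-high cells and 6 in the others. The sum of these genes was 154 to 185 CPM by library in interferon-high cells and 186 to 238 in the others. The epithelial sum was 13.2 to 36.5 against 22.5 to 30.9 CPM, the plasmacytoid sum 115 to 198 against 151 to 199, and the B cell sum 0 to 26 against 8.71 to 25.4. The NK, NKT and gamma delta sum was 6.61 to 163 against 60.8 to 289 CPM, the double-positive thymocyte sum 34.5 to 81.4 against 61.4 to 103, and the erythroid sum 0 to 59.5 against 2.99 to 57.4. In library 4 the epithelial and B cell sums were higher in interferon-high cells, at 36.5 against 22.5 and 26 against 17.8 CPM, as were the double-positive sum in library 2 (81.4 against 61.4) and the erythroid sum in library 3 (59.5 against 57.4). The part of such RNA in the results was not tested.

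Mitochondrial and stress genes gave no call in either direction, with medians of -0.12 and -0.07. Predicted doublets were 2 of the 325 cells, a number so low over the whole table (44 cells) that the prediction cannot be relied on. Of 27 barcodes that occurred in more than 1 library, none belonged to an interferon-high cell.

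Effector Treg genes were mixed, with Icos called higher (0.71), Ccr6 lower (-1.33, 10 UMIs) and a median of -0.13. Icos was not called at a cut of 6 rule-gene UMIs (0.46), nor with the mean of each cell's CPM (0.35). S100a6 had a ratio of 1.94, but 82.6% of its UMIs in interferon-high cells came from 1 cell, and it was not called.

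Outside every list, 130 genes were called higher and 191 lower, and most of these are not described here. Further genes known as interferon-inducible were among the higher ones and were chosen after their values were seen. Phf11c, Ifi214 and Ifi206 had log2 ratios of 2.06, 2.03 and 1.62, the helicase gene Ddx60 1.75, and the dNTP hydrolase gene Samhd1 0.93. Cd86, a costimulatory ligand, had 1.51, Cd274 (PD-L1), an inhibitory ligand, 1.29, and Tnfsf10 (TRAIL), a death ligand, 1.57. Cd274 stood at 15.7, 16.3, 79.3 and 36.5 CPM against 8.81, 11, 25 and 11.8, higher in every library. Jaml, an adhesion molecule and the only member of the 12 largest ratios outside the lists, had 2.11.

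Promoter sequence was compared across the called genes. The response-element core was found in 49 of the 172 genes called higher that had a promoter entry (28.5%), in 2.33% of those called lower and in 3.93% of all measured genes. Over list genes with a promoter entry, called or not, it was found in 11 of 13 GBP and IRG genes (84.6%) and 11 of 16 sensors (68.8%). The core was in 10 of 26 antiviral effectors (38.5%) and 5 of 16 genes of the MHC class I list (31.2%). For the PARP, SP100 and SLFN list it was in 7 of 23 (30.4%), and for the signalling factors in 3 of 15 (20%). Of genes called higher that were in no interferon list, 18 of 112 held it (16.1%). Of measured genes of the interferon lists that were not called, 11 of 37 with a promoter entry held it (29.7%), against 31 of 60 for those called higher (51.7%). The gamma-activated site TTCNNNGAA, which reads alike on both strands, was found in 8.16% of measured genes and 9.55% of all genes with a promoter entry. It was found in 13.4% of genes called higher, 11.6% of those called lower and 8.04% of those called higher in no interferon list. Over list genes with a promoter entry it was found in 46.2% of the GBP and IRG genes, 34.6% of the antiviral effectors and 26.7% of the signalling factors. The shares were 6.25% for the MHC class I list and 4.35% for the PARP, SP100 and SLFN list. None of the 16 sensors or 6 rule genes held it.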

How the data were processed

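Per the labels' protocols, cells were captured with a droplet 3′ kit (version 2 chemistry). Tools named in the submitters' processing notes were Cell Ranger 2.0.2 with CASAVA 2.20 and R 3.4.1, and the build was mm10. The authors deposited UMI counts (27998 genes, 8273 cells) and a table of log2 values for 9571 genes in 7231 cells named as G1. In the latter, the authors' counts had been scaled by 1 factor per cell and put on a log2 scale after adding 1. The choice of G1 cells and genes is not stated in the sources used here. Symbols came from GENCODE M21 (353 identifiers had none).

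Counts were summed per library and side. The Mantel-Haenszel ratio had a symmetric pseudocount based on 0.5 UMIs, and the direction within a library was that of the plain CPM. No clustering was done. Thinning drew 1811 UMIs per cell, the 10th percentile. The members and the 27 gene lists were chosen with earlier results of these data known, and 11 list genes were not analysed here. Named genes were the rule genes, the 12 called genes with the largest ratio each way, up to 6 called members per list (or the 2 with most UMIs where fewer than 2 were called) and a set of interferon, receptor and Treg genes. Further list members that were not called, and all genes outside the lists other than Jaml and the largest lower ones, were named after their values were seen. A few items are not reported here. The calling procedure was tested on simulated data with counting error only, which does not cover variation between cells.

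Alternatives covered scaling, the cut (6, 15, or 30 per 10000 UMIs), depth strata, removal of cells under 500 genes or over 10% mitochondrial UMIs, removal of predicted doublets, weighting, the gene filter, the normalized table and each library left out. Software was scanpy 1.11.5 (doublets), edgeR 4.0.16 (trimmed mean of M-values factors only), scipy 1.17.1, matplotlib 3.10.9, numpy 2.4.6 and pandas 2.3.3 under Python 3.11.15.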

Additional observations from a re-analysis of the deposited data

Results flagged for a closer look

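Interferon-high cells also occurred outside the G1 table, which the comparisons did not use: 37 of the 325, or 3.55% of cells there (exact 95% interval 2.51 to 4.86) against 3.98% inside it. They were deep, with a median of 6089 UMIs. Their G2 and M phase genes summed to 5095 CPM against 112 in the interferon-high cells of the G1 table, and their GBP and IRG genes to 1482 against 2496 CPM. Other cells outside the table had 4580.4 and 543 CPM of these lists.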

How the results depend on the processing

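The counts of higher and lower genes stayed within 1.5 times of 209 and 201 under the scaling, cut, filter, depth and weighting alternatives. On the authors' normalized values, where ratios are differences of mean log2(value + 1) and so smaller for scarce genes, 20 were called higher and 0 lower, and the antiviral median was 0.17. That median was 1.41 at a cut of 15 and 1.40 against other cells with 2 or fewer rule-gene UMIs. Without each library in turn, 225 to 265 genes were called higher and 194 to 240 lower, of which 177 to 186 and 99 to 143 were also called with all 4, and the antiviral median was 1.17 to 1.26. Within strata of library and depth, 217 were called higher, 207 of them shared.

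Shares of interferon-high cells moved with the cut: over all libraries 9.16% at 6 and 1.84% at 15, and 5.4% after thinning. In library 1 they were 10.2% at 6, 2.24% at 15 and 3.05% at 30 per 10000 UMIs. In library 2 they were 8.89%, 1.75% and 3.14%, and in library 3 6.82%, 1.28% and 3.78%, with 5.67% after thinning. In library 4 they were 10.9% at 6, 2.16% at 15 and 7.07% after thinning. Birc5, a mitotic gene, reversed to a log2 ratio of 2.66 when interferon-high cells outside the G1 table were included, which brings dividing cells to 1 side only. The G2 and M phase median then went from -0.35 to 2.63, with 8 of 12 genes called higher, and was 0.15 without library 2 and 0.06 without library 4. No paired analysis was possible because the 4 genotype samples share only the number 1. The comparison of interferon-high with other cells was itself made within each library, without a test over the libraries, which are unassigned.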
